A study of Mus musculus with 6 samples.

Results

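The genes that carry the rhythm of the circadian clock to its targets were described in mouse dorsal root ganglia, which hold the cell bodies of the sensory neurons. They were chosen by name, as the 9 symbols Dbp, Tef, Hlf, Nfil3, Bhlhe40, Bhlhe41, Ciart, Rora and Rorb, out of 54242 gene symbols in the deposited table. The ganglia came from the levels L4-6 of male C57bl/6 mice of 8-10 weeks. There were 3 libraries from mice fed ad libitum (called fed) and 3 from mice on Intermittent Fasting for 10 days (called fasted). Both groups had their ganglia dissociated with papain, Collagenase Type II (2.5 mg/ml) and Dispase II (1 mg/ml), followed by a 15% BSA gradient for neuronal enrichment. The labels give no hour of the day for the collection and do not say whether a library is 1 animal or a pool, so p-values measure only how libraries differ, which can be technical. The labels say that the animals were killed after 24 hours, without stating what the 24 hours follow.

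The circadian clock is a loop in which BMAL1 (gene Arntl) and CLOCK activate their own repressors through a DNA element called the E-box. Its rhythm reaches other genes through further transcription factors. DBP, TEF and HLF are the PAR bZIP factors (leucine zipper proteins rich in proline and acidic residues), which activate genes that hold a D-box, and NFIL3 (E4BP4) represses through the same element. BHLHE40 (DEC1) and BHLHE41 (DEC2) are repressors that bind E-boxes, and CIART (CHRONO) represses BMAL1 and CLOCK. RORA and RORB are nuclear receptors that activate through the ROR element, which the REV-ERB repressors (genes Nr1d1 and Nr1d2) also bind.

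The 300-base promoter windows of RefSeq (GRCm38.p6; 250 bases before to 50 after a gene's start) held 10 windows for 8 of the 9 members and none for Bhlhe40, which was not searched. The 10 windows were searched on both strands for the E-box letters CACGTG, the D-box letters TTATGTAA or TTATGCAA, and TAGGTCA, the core of the ROR element. The stretches with a match are shown here because they tell apart the members with clock motifs near the start, with the match in capitals; TGACCTA is TAGGTCA on the other strand.
Ciart, chr3:95882259-95882388, minus strand: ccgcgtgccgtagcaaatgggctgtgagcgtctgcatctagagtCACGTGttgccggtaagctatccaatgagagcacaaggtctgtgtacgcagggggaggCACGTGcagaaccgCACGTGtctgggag
Tef, downstream start, chr15:81811254-81811383, plus strand: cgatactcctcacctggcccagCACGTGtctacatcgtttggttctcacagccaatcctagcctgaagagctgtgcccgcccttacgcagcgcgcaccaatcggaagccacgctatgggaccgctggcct
Tef, upstream start, chr15:81802534-81802563, plus strand: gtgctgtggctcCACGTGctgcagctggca
Bhlhe41, chr6:145865556-145865585, minus strand: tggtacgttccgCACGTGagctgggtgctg
Nfil3, chr13:52981033-52981062, minus strand: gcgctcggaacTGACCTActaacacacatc

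The window of Ciart held 3 E-boxes, which began 116, 58 and 44 bases before its start. Each of the 2 windows of Tef held 1, at 138 bases before the downstream start and 127 before the upstream one, and that of Bhlhe41 held 1 at 153. The letters of the ROR element stood 12 bases before the RefSeq start of Nfil3. The upstream match of Tef and that of Nfil3 lie inside first exons of GENCODE M21, which begin further upstream. No D-box was found in these windows, and the windows of Dbp, Hlf, Rora and Rorb held none of the letters. Of all 32851 windows 7.15% held CACGTG, 0.938% TTATGTAA, 0.743% TTATGCAA and 2.61% TAGGTCA. A match is a description of the letters in this window and does not show that a factor binds there. The lack of a match does not show that a gene has no such element outside its window. The window of Rora lies at its upstream start, so its downstream start was not searched.

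Levels are given as TPM (length-corrected transcript abundance scaled to a total of 1000000 per library), summed over the transcript rows of a gene. TPM corrects for length, so levels may be compared between genes, but keeps no sequencing depth, so no counting error is given. A gene was tested where its mean over the 6 libraries reached 1 TPM, which 15097 genes and 8 of the 9 members did. Fed replicate 2 stood apart by its skeletal muscle RNA: the 6 muscle markers summed to 2532 TPM there and to 48.2 to 253.9 TPM in the other libraries. The 9 neuronal markers summed to 18318 to 20297 TPM with feeding and to 20067 to 21114 TPM with fasting, with 9 of 9 higher in the mean but ranges that overlapped, and the sums for satellite glia, Schwann cells and fibroblasts overlapped too. Macrophage markers (66.3 to 81.0 against 42.0 to 53.9 TPM), endothelial markers (140.3 to 169.8 against 113.1 to 124.4 TPM) and erythrocyte markers (1284 to 1564 against 1715 to 3277 TPM) did not overlap between the groups. No marker was at 0 in any library. Their part in the results for the 9 genes was not tested, and in bulk RNA fewer cells of a type cannot be told apart from less RNA per cell.

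The 9 genes spanned levels from near 0 to above 50 TPM. Tef was the most abundant at 52.9 ± 2.32 TPM (SD over the 6 libraries), followed by Bhlhe41 at 24.7 ± 1.48, Bhlhe40 at 18.0 ± 2.63 and Dbp at 16.4 ± 2.77 TPM. Nfil3 lay at 6.40 ± 0.37 TPM, and Hlf (4.40 ± 0.61), Ciart (4.40 ± 0.86) and Rora (4.26 ± 0.33 TPM) lay close together below it. Among neighbours in this order, the ranges of Bhlhe40 and Dbp, of Hlf and Ciart, and of Ciart and Rora overlapped. All other neighbours kept their order in 6 of 6 libraries with ranges apart. Tef stood above 75.7% of the tested genes in mean TPM, and Rora above 20.9%. Rorb (chr19:18930605-19111196, GRCm38) had 0.0167, 0.00506 and 0.0337 TPM with feeding and was listed at 0 in each of the 3 fasted libraries, so it was below the limit for testing.

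**Figure D1:**
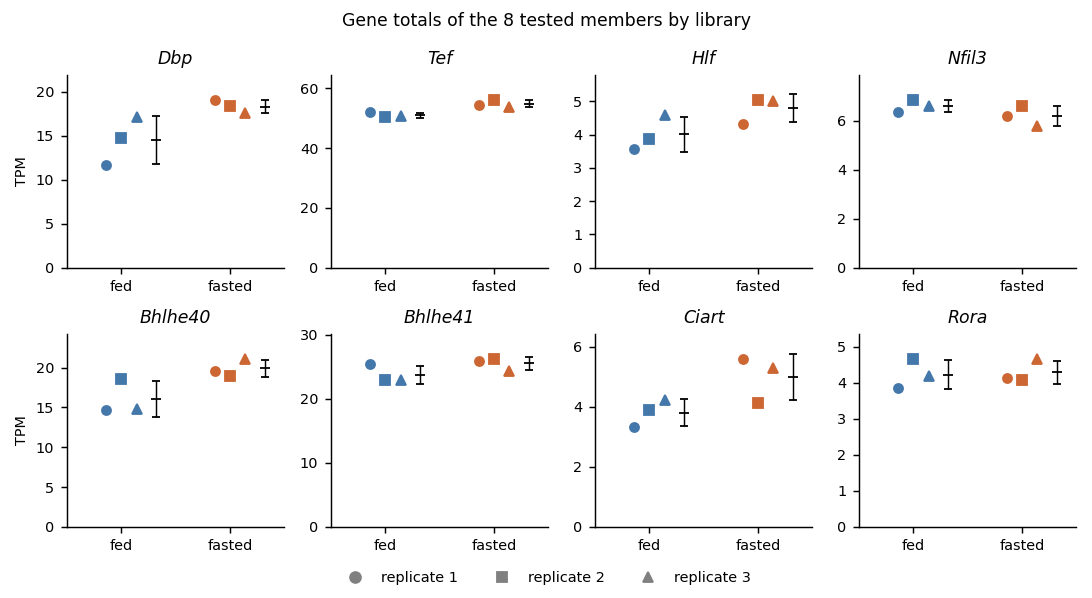
TPM (vertical axes from 0) of the 8 tested genes in each library, fed in blue and fasted in orange, with marker shapes for replicate numbers and black bars for the mean ± SD of 3 libraries. The fasted points of Dbp, Tef and Bhlhe40 all lie above the fed points, while those of Hlf, Nfil3, Bhlhe41, Ciart and Rora overlap with them.

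Did the clock's output factors differ between the diets? In fasted libraries 7 of the 8 tested genes had the higher mean and Nfil3 the lower. None passed an adjusted p of 0.05 over all genes (limma), a threshold that 0.00662% of all tested genes passed. The groups did not overlap for 3 of the 8, Dbp, Tef and Bhlhe40, all higher in fasted libraries; of all tested genes, 12.7% were higher without overlap and 5.07% lower. Without a short Bhlhe40 transcript row described further on, 2 of the 8 (Dbp and Tef) did not overlap. Unadjusted p was under 0.05 for 4 of the 8 (the same 3 and Ciart, all higher), against 9.94% of all genes, 6.72% higher and 3.22% lower. That count was 1 (Bhlhe40) without fed replicate 2, without fasted replicate 1 or without mitochondrial genes. It was 2 without fed replicate 1 (Bhlhe41 and Tef), without fasted replicate 2 (Bhlhe40 and Ciart) or without fasted replicate 3 (Dbp and Tef). Without fed replicate 3 it was 4, but of other genes (Bhlhe40, Ciart, Dbp and Hlf). It was 2 (Bhlhe40 and Dbp) under median-of-ratios scaling. The median log2 fold change of the 8 was 0.16, and that of all tested genes 0.031. TPM put 62.5% of all genes higher in fasted libraries, against 50.9% after median-of-ratios scaling, so the share of genes that lie higher depends on the scaling. Mitochondrial genes held 5.71%, 9% and 6.91% of TPM in fed replicates 1 to 3. In the fasted libraries they held 5.16%, 5.24% and 4.83%, without overlap. When these genes were left out, 50.3% of all genes lay higher. The log2 fold changes were then 0.30 for Dbp, 0.071 for Tef, 0.27 for Bhlhe40 and 0.29 for Ciart, against 0.33, 0.10, 0.30 and 0.32 with them. Beyond this refit, the part of the mitochondrial share in the results for the 9 genes was not tested.

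Dbp, the D-box activator whose RNA cycles widely in mouse tissues, measured 11.6, 14.7 and 17.1 TPM with feeding (replicates 1 to 3, the order used throughout). With fasting it measured 19.1, 18.3 and 17.5 TPM. The fed libraries were spread over a wider range than the fasted ones, and the highest fed value lay just below the lowest fasted value. The log2 fold change was 0.33 (95% interval 0.045 to 0.62; limma, unadjusted p = 0.029, adjusted p = 0.49). Without fed replicate 1, the lowest library, it was 0.19. The gene (ENSMUSG00000059824; chr7:45705088-45710203, GRCm38) overlaps Sphk2, a sphingosine kinase gene on the opposite strand, by 737 bases. Sphk2 was at 42.8 to 44.4 TPM with feeding and 40.8 to 44.3 TPM with fasting. The kit marks strand, but the sources used here do not say whether the quantification used it.

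Tef (chr15:81802421-81826863) measured 52.0, 50.3 and 50.7 TPM with feeding and 54.6, 56.2 and 53.8 TPM with fasting. The groups were narrow and did not overlap, but they lay close together. The log2 fold change was 0.10 (95% interval 0.014 to 0.19; limma, unadjusted p = 0.028, adjusted p = 0.49), and 0.065 under quantile normalization. Hlf, the third PAR bZIP gene (chr11:90336536-90390895), measured 3.56, 3.88 and 4.59 TPM with feeding and 4.32, 5.05 and 5.02 TPM with fasting. Fed replicate 3 lay above fasted replicate 1, so its groups overlapped (log2 fold change 0.21, 95% interval -0.041 to 0.47; limma, adjusted p = 0.53).

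Nfil3, the repressor at the D-box, was the only tested gene of the 9 with a lower fasted mean. The gene (chr13:52967209-52981073) measured 6.36, 6.86 and 6.60 TPM with feeding and 6.19, 6.59 and 5.80 TPM with fasting. The groups overlapped, with fasted replicate 3 lowest (log2 fold change -0.082, 95% interval -0.26 to 0.096; limma, adjusted p = 0.69), and without that library the value was -0.042. The log2 ratio of Dbp to Nfil3, which does not depend on the scaling between libraries, ranged from 0.87 to 1.38 with feeding and from 1.48 to 1.62 with fasting. The ratio was above 0 in all 6 libraries, so Dbp was the more abundant RNA throughout, and the groups did not overlap. This ratio is a description of a pair chosen with the results known and was not tested.

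Bhlhe40 (chr6:108660629-108666925), a repressor that also responds to many stimuli, measured 14.7, 18.6 and 14.8 TPM with feeding and 19.6, 19.0 and 21.1 TPM with fasting. Fed replicate 2, the library with the most muscle RNA, was the highest fed value and lay close to the lowest fasted one. The log2 fold change was 0.30 (95% interval 0.080 to 0.52; limma, unadjusted p = 0.014, adjusted p = 0.48), and 0.41 without fed replicate 2. After median-of-ratios scaling the groups overlapped, and they also overlapped without the short transcript row, where the log2 fold change was 0.18. Without fed replicate 2 Dbp, Tef and Bhlhe40 did not overlap.

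Bhlhe41, its paralog (chr6:145858243-145865558), measured 25.4, 22.9 and 22.9 TPM with feeding and 26.0, 26.2 and 24.4 TPM with fasting. Only fed replicate 1 reached into the fasted range (log2 fold change 0.10, 95% interval -0.036 to 0.24; limma, adjusted p = 0.54). The log2 ratio of Bhlhe40 to Bhlhe41 was -0.79, -0.30 and -0.63 in fed and -0.40, -0.47 and -0.21 in fasted libraries. It was below 0 in all 6 libraries and overlapped between the groups.

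Ciart (chr3:95878503-95882251), whose window held 3 E-boxes, measured 3.32, 3.88 and 4.22 TPM with feeding and 5.59, 4.12 and 5.29 TPM with fasting. Fasted replicate 2 lay inside the fed range, and the other fasted libraries lay above it. The log2 fold change was 0.32 (95% interval 0.021 to 0.61; limma, unadjusted p = 0.039, adjusted p = 0.50), and 0.43 without fasted replicate 2. Rora (chr9:68653786-69388246) measured 3.84, 4.66 and 4.17 TPM with feeding and 4.14, 4.08 and 4.65 TPM with fasting. The groups lay on top of each other, and the estimate was 0.019 with a 95% interval from -0.21 to 0.25 (limma, adjusted p = 0.95). Its sign turned under median-of-ratios scaling (-0.0070), without fed replicate 1 (-0.035) and without fasted replicate 3 (-0.029).

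**Figure D2:**
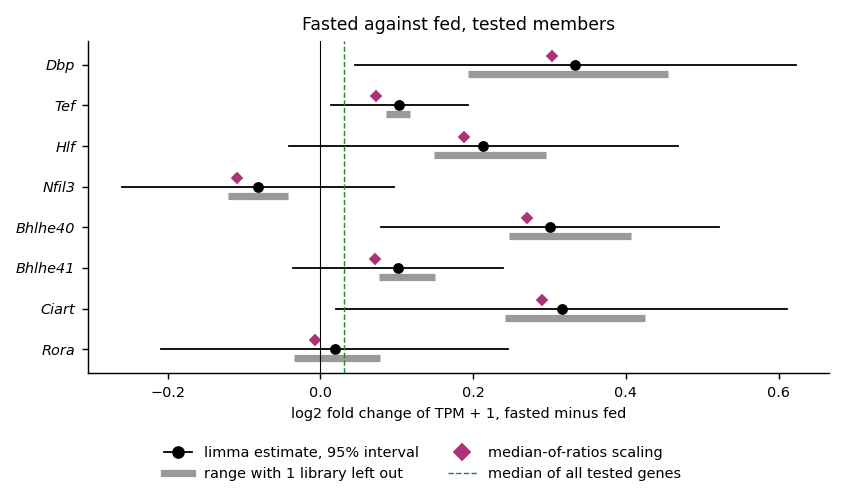
Log2 fold change of TPM + 1, fasted minus fed (horizontal axis), for the 8 tested genes: black points and lines are limma's estimate and 95% interval, grey bars the range with 1 library left out, diamonds the estimate after median-of-ratios scaling, and the dashed line the median of all tested genes (0.031). The intervals of Dbp, Tef, Bhlhe40 and Ciart lie above 0 before adjustment, and those of Hlf, Nfil3, Bhlhe41 and Rora include it.

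The table lists 46 transcript rows for the 9 genes, of which 9 were at 0 in all libraries and 14 reached a mean of 1 TPM. None of the 14 passed an adjusted p of 0.05 over the 33197 transcripts tested (limma), which 0.0271% of transcripts passed. The groups did not overlap for 4 of the 14, Dbp-201, Tef-201, Hlf-201 and Ciart-201, all higher in fasted libraries, as were 9.38% of all tested transcripts, with 4.98% lower. Unadjusted p was under 0.05 for 2 of the 14 (Dbp-201 and Tef-201), against 7.21% of all transcripts, 4.49% higher and 2.71% lower. With 1 library left out their unadjusted p ranged from 0.0021 to 0.085 for Dbp-201 and from 0.042 to 0.10 for Tef-201 (limma). Values for single transcripts are estimates that divide reads among overlapping models, so they are less certain than gene totals.

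For Bhlhe40, the transcript rows divided the difference seen in the gene total. The full-length transcript (3113 bases, 5 exons) measured 14.6, 18.3 and 14.6 TPM with feeding and 19.1, 17.9 and 17.3 TPM with fasting. Here fed replicate 2 lay above fasted replicates 2 and 3, so the groups overlapped (log2 fold change 0.19; limma, adjusted p = 0.70). Without fed replicate 2 the value was 0.29 (limma, unadjusted p = 0.0073, adjusted p = 0.67), and the remaining fed values lay below all 3 fasted ones. A short model of 476 bases in 4 exons that starts 245 bases further downstream was listed at 0 in every fed library and had 0.37, 0.85 and 3.70 TPM with fasting. It was highest in fasted replicate 3 and below the limit for testing. Without this row, left out after its values were seen, the fasted totals of Bhlhe40 were 19.3, 18.1 and 17.4 TPM, so that fed replicate 2 (18.6 TPM) reached into their range. The log2 fold change was then 0.18 (limma, unadjusted p = 0.092, adjusted p = 0.53). The full-length transcript made up 98.9%, 98.5% and 98.9% of the gene total in fed and 97.3%, 94.4% and 81.9% in fasted libraries. The fasted shares were all lower (exact two-sided permutation p = 0.1, the smallest that 3 against 3 allows; Benjamini-Hochberg over the 7 genes with several transcripts, 0.56).

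Dbp was carried by Dbp-201 (1837 bases, 4 exons), at 9.31, 10.3 and 13.6 TPM with feeding and 14.5, 16.2 and 13.9 TPM with fasting. The groups did not overlap in this row (log2 fold change 0.40; limma, unadjusted p = 0.027, adjusted p = 0.67). The other 4 rows, among them the retained-intron models Dbp-202 and Dbp-205, lay between 0 and 2.58 TPM and overlapped. The share of Dbp-201 was 70.2% to 80.1% in fed and 75.8% to 88.2% in fasted libraries (exact two-sided permutation p = 0.6).

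Tef has start sites 8993 bases apart in GENCODE M21. The E-box shown for the downstream start lies before it, whereas the one for the upstream RefSeq start lies within the first exon of Tef-202. The transcript from the downstream start, Tef-201, measured 29.9, 27.9 and 29.8 TPM with feeding and 31.8, 34.4 and 31.6 TPM with fasting, without overlap (log2 fold change 0.15; limma, unadjusted p = 0.031, adjusted p = 0.67). The transcript from the upstream start, Tef-202, measured 16.3, 15.9 and 15.6 TPM with feeding and 16.9, 15.8 and 17.2 TPM with fasting, with overlap (0.059; limma, adjusted p = 0.81). Median-of-ratios scaling put this value at 0.029, and it was 0.036 without fasted replicate 3 and 0.092 without fasted replicate 2. Whether the transcripts from the 2 starts differed in response was not tested directly. Only the share of Tef-201 in the gene total, which holds further rows, was tested. The share of Tef-201 was 57.5%, 55.4% and 58.7% in fed and 58.2%, 61.1% and 58.7% in fasted libraries. These shares overlapped (exact two-sided permutation p = 0.3). The retained-intron rows Tef-203 (1.63 to 1.93 TPM) and Tef-207 (1.83 to 2.87 TPM) were minor, with limma's adjusted p at 0.91 and 0.99. The share of Tef-203 did not overlap between the groups, at 3.58% ± 0.14 with feeding and 3.06% ± 0.15 with fasting (SD, 3 libraries each), and was not tested. It was picked after the shares of all rows were seen, and the TPM of Tef-203 overlapped between the groups. Tef-206, an incomplete model below the limit for testing, had 0.14, 0.30 and 0.38 TPM with feeding and was listed at 0 in every fasted library.

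Rora was also read from widely spaced starts, 635896 bases apart. Rora-201, from the upstream start, measured 2.88, 3.79 and 3.08 TPM with feeding and 2.97, 3.16 and 3.10 TPM with fasting. Rora-202, from the downstream start, measured 0.78, 0.75 and 0.98 TPM with feeding and 0.98, 0.78 and 1.49 TPM with fasting, below the limit for testing. The upstream form was the more abundant in all 6 libraries, with 66.7% to 81.4% of the gene total. Hlf-201 held 77.2% to 91.8% of Hlf and the longest Bhlhe41 transcript held 85.4% to 91.9% of Bhlhe41, with overlap between the groups. Ciart was divided between Ciart-201 (33.2% to 52.5%) and Ciart-205 (41.3% to 56.3%), a model whose start is incomplete in the annotation, and Nfil3 has 1 transcript row.

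**Figure D3:**
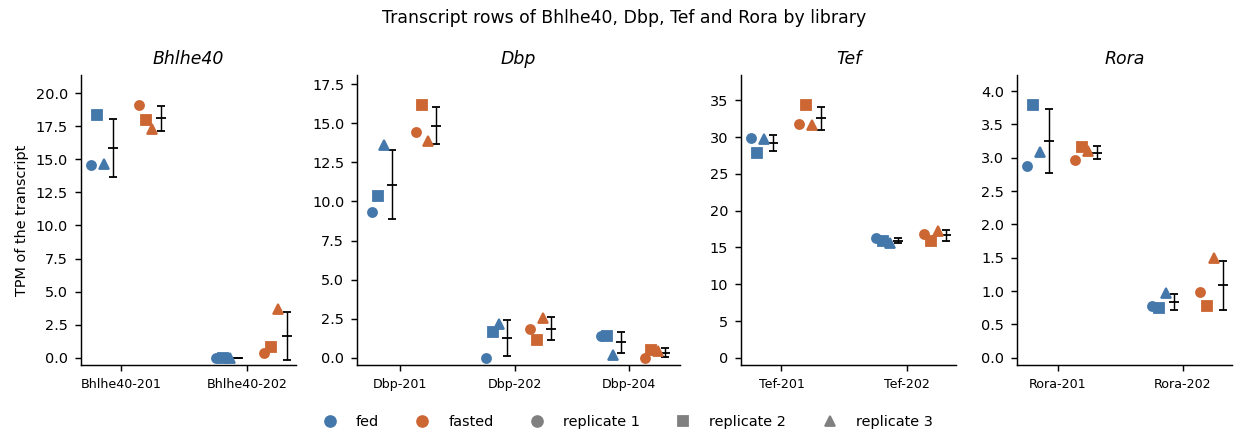
TPM of single transcripts of Bhlhe40, Dbp, Tef and Rora (vertical axes) in each library, fed in blue and fasted in orange, with marker shapes for replicate numbers and black bars for the mean ± SD of 3 libraries. The short Bhlhe40 transcript is listed at 0 in fed libraries and reaches 3.70 TPM in fasted replicate 3, and the groups are apart for Dbp-201 and Tef-201 but not for Tef-202 or Rora-201.

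The genes around these factors were read from lists, to be set beside the shares over all tested genes. Of those, 62.5% had the higher fasted mean. An unadjusted p under 0.05 was reached by 6.72% higher and 3.22% lower (limma), and 12.7% were higher and 5.07% lower without overlap. Of 18 core clock genes tested, 14 had the higher mean in fasted libraries and 4 the lower, and 0 passed over all genes (limma), with unadjusted p under 0.05 for 4 higher and 2 lower. The median was 0.10. The groups did not overlap for 5 higher and 2 lower genes. The repressor genes Per1 (log2 fold change 0.61) and Cry1 (0.30) and the activator gene Arntl (-0.53) had the smallest p. Nr1d1, which represses through the ROR element, measured 15.6, 14.8 and 16.1 TPM with feeding and 12.8, 13.8 and 10.8 TPM with fasting, without overlap (limma, adjusted p = 0.48). Its partner Nr1d2 overlapped, at 28.6 to 32.7 against 30.6 to 34.2 TPM.

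Of 9 genes known as targets of the PAR bZIP factors, 6 were tested, all 6 had the higher fasted mean, 0 passed (limma), and 3 had an unadjusted p under 0.05 (median 0.14). Over all tested genes the higher fasted mean was found for 62.5%. Of the 6 tested targets, 3 are Per1, Per2 and Per3, which are core clock genes too, and several of the lists share genes such as Per1 and Tsc22d3. Por, the reductase that serves cytochrome P450 enzymes, measured 34.5, 34.1 and 35.3 TPM with feeding and 37.2, 39.1 and 36.4 TPM with fasting. Its groups did not overlap (log2 fold change 0.11; limma, adjusted p = 0.50). Pdxk, the kinase that makes active vitamin B6, was at 15.3 ± 0.78 against 16.5 ± 1.03 TPM (SD, 3 libraries each), and Alas1, of haem synthesis, at 69.2 to 71.7 against 67.0 to 76.8 TPM. Both overlapped between the groups. The log2 fold change of Alas1 was 0.0019, below the median of all tested genes (0.031). The lists were counted on TPM only, without another scaling.

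Of 15 tested genes that cycle in many tissues, 10 had the higher and 5 the lower fasted mean (median 0.077). Tsc22d3, Per1 and Per3 had the smallest p, and 0 passed (limma; unadjusted p under 0.05 for 3 higher and 1 lower). The C/EBP family, leucine zipper factors related to NFIL3, had 2 higher and 3 lower means among 5 tested genes, with 0 passing (limma; 0 at an unadjusted p under 0.05 as well, median -0.025). Cebpa was at 4.86 to 6.76 against 4.58 to 5.63 TPM, Cebpg at 20.3 to 21.6 against 20.9 to 23.1 TPM and Cebpd at 4.56 ± 1.29 against 5.15 ± 0.82 TPM (SD, 3 libraries each). All 5 genes of the family overlapped between the groups.

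The HES and HEY repressors, relatives of BHLHE40, had 3 higher and 3 lower means among 6 tested genes, with 0 passing (limma; 1 at an unadjusted p under 0.05, median 0.016). Hey1 was at 22.2 to 24.3 against 25.1 to 26.4 TPM, without overlap, while Hes1 (12.1 to 13.4 against 10.6 to 12.9 TPM) and Hey2 (31.0 to 34.9 against 33.2 to 36.3 TPM) overlapped. Glucocorticoid-responsive genes had 11 higher and 6 lower means among 17 (median 0.12), with Tsc22d3, Per1 and Klf9 in front by p. In this list the groups did not overlap for 4 higher genes and 1 lower, Plin4 (log2 fold change -0.66; limma, adjusted p = 0.50). Immediate early genes, which respond to stimulation and to dissociation of tissue, had 11 higher and 4 lower among 15 (median 0.064). Among these 15 the groups did not overlap for 3 higher genes and 1 lower. Egr3 was at 2.15 to 3.76 against 5.46 to 5.63 TPM and Jun at 61.8 to 65.8 against 68.8 to 71.3 TPM, both without overlap. Atf3 was at 6.22 to 18.0 against 6.03 to 8.03 TPM with overlap. In both lists 0 genes passed (limma), with unadjusted p under 0.05 for 5 higher and 1 lower of the glucocorticoid list and 2 higher of the immediate early list, and their part in the values of Bhlhe40 was not tested.

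**Figure D4:**
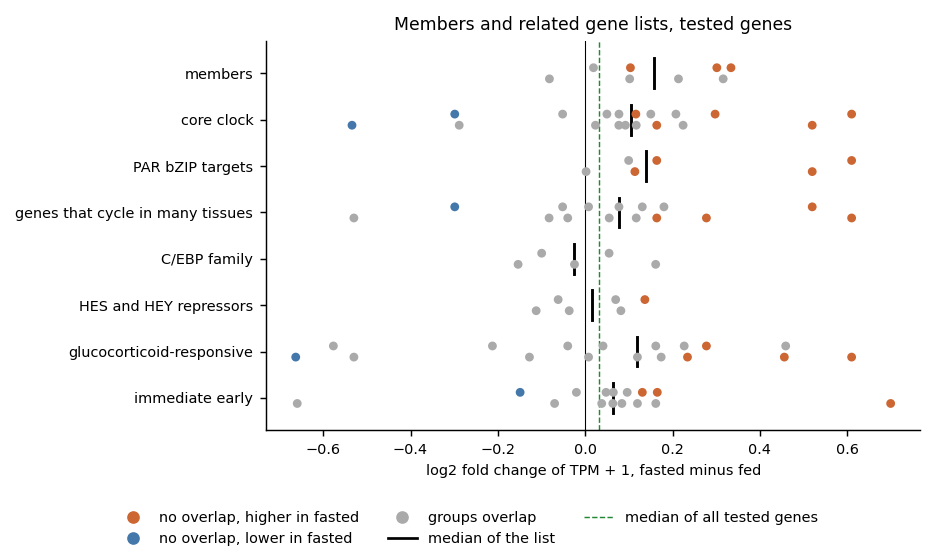
Log2 fold change of TPM + 1, fasted minus fed (horizontal axis), of each tested gene of the members and of 7 related lists; orange and blue points are genes whose groups do not overlap, grey points overlap, black bars are list medians and the dashed line the median of all tested genes (0.031). The members' median is 0.16, those of the core clock and PAR bZIP target lists are 0.10 and 0.14, and those of the C/EBP and HES and HEY lists are -0.025 and 0.016.

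Among the 27 tested genes of the core clock and many-tissue lists, Per3 followed Dbp most closely over the 6 libraries (Pearson r = 0.88, Spearman rho = 0.89, on log2(TPM + 1)), and Dtx4 ran most opposite (r = -0.86). For Bhlhe40 these were Tsc22d3 (r = 0.85) and Nr1d1 (r = -0.87). For Nfil3 they were Nr1d1 (r = 0.81) and Csnk1d (r = -0.80), and for Rora they were Pdk4 (r = 0.70, rho = 1) and Fkbp5 (r = -0.92). These are the extremes of 27 values over 6 libraries that share the diet groups and the scaling of TPM, and they are given as descriptions. Pdk4 measured 20.4 TPM in fed replicate 2, the library with the most muscle RNA, and 4.47 to 5.89 TPM in the others. Rora was highest in that library too, at 4.66 TPM, just above fasted replicate 3 at 4.65 TPM.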

How the data were processed

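Polyadenylated RNA of 6 libraries was measured with a stranded library kit, per the labels' protocols. The authors deposited 1 table of TPM per transcript (140992 transcripts, each library summing to 1000000). The tools listed are Salmon 1.6.0, Trim Galore 0.6.6, DESeq2 1.34.0 and FastQC 0.11.9, per the submitters' processing notes, which also name GRCm38 and mm10. Their roles and order and the annotation release are not given there. TPM keep no depth, so the precision of low values is unknown and no count test was run.

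TPM was summed by gene symbol, genes whose mean over all libraries reached 1 TPM were kept, and log2(TPM + 1) was compared between groups with limma 3.58.1 in R 4.3.3 (group as the only term, intensity trend, two-sided, Benjamini-Hochberg over all genes tested, threshold 0.05). Fold changes are on this scale, which understates those of low genes. Transcripts were tested the same way. Shares of the most abundant transcript were compared by exact permutation with SciPy 1.17.1. Transcript names and coordinates are from GENCODE M21 (GRCm38), which held 98.71% of the deposited transcript versions. The fit was tested on simulated data. A comparison of the members' protein sequences was planned and not made. Figures were drawn with matplotlib 3.10.9 in Python 3.11.15.

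The 9 members, the gene lists and the tests were chosen with earlier results of these data known. Named beside the members are the 3 genes of each related list with the smallest p, and the genes most and least like Dbp, Nfil3, Bhlhe40 and Rora. Transcripts of members are named where their mean reached 1 TPM. The transcripts below that mean, Nr1d2, Pdxk, Alas1, Sphk2 and Plin4, and Nr1d1 for its own values, were added after their values were seen. So were the share of Tef-203 and the shares of mitochondrial genes. Rorb was left out of the likeness and ratio values because it is listed at 0 in 3 libraries. Alternatives were other pseudocounts, filters and scalings, array weights, a replicate block and each library left out.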

Additional observations from a re-analysis of the deposited data

How the results depend on the processing

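None of the 8 tested genes passed an adjusted p of 0.05 under any alternative, the lowest being 0.33 (limma). Among gene values under alternatives 121 kept their direction, and the 5 that did not were all of Rora. They were -0.0070 under median-of-ratios, -0.0074 under TMM-type scaling, -0.0081 without mitochondrial genes, -0.035 without fed replicate 1 and -0.029 without fasted replicate 3. The full range of Rora with 1 library left out was -0.035 to 0.078. Among transcript values 133 kept their direction and 7 did not. Other filters and the replicate block leave a fold change as it is, so both counts include values that could not reverse. With 1 library left out the shorter coding Bhlhe41 transcript ran from -0.083 to 0.32, Dbp-202 from -0.053 to 0.77, Rora-201 from -0.12 to 0.035 and Tef-207 from -0.14 to 0.081. The number of the 8 genes at an unadjusted p under 0.05 (4) was 2 under median-of-ratios and under TMM-type scaling, 1 without mitochondrial genes and 1 to 4 with 1 library left out, a count added after seeing the data. The genes counted changed with the library left out. The number of genes passing over all genes was 1, against 2 with a pseudocount of 0.1, 2 with 0.5, 0 without a filter on low values (where 2083 had an unadjusted p under 0.05; limma) and 1 to 7 with 1 library left out. The number of transcripts passing was 9, against 4 to 14 with 1 library left out. With the replicate number as a block 1 gene and 0 transcripts passed (2409 transcripts at an unadjusted p under 0.05; limma), and the log2 fold changes of the genes were the same, with Dbp at 0.33 (limma, adjusted p = 0.43). Same-numbered libraries shared deviations only weakly (r across genes 0.093, 0.11 and 0.066), and no label ties a number to a batch or litter, though every library correlated best with its own number. The share of the longest Bhlhe41 transcript differed by -1.90 to 1.38 points with 1 library left out, and the other 6 shares kept their direction. The cause of these shifts was not tested.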
